A study of Arabidopsis thaliana with 14 samples.

Results

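The genes described here are 4 Arabidopsis thaliana genes of pollen tube signalling and the pollen cytoskeleton: the peptide genes RALFL25 (AT3G25165) and RALFL26 (AT3G25170), the receptor kinase gene ANX2 (AT5G28680) and the actin gene ACT12 (AT3G46520). Each has 1 probe set that names it alone, which makes 4 of the 13436 probe sets that name 1 gene of the gene table used here and 4 of 22810 on the array. They were chosen by their names after earlier results of these arrays had shown low levels of pollen genes in gir inflorescences, so the inflorescence intensities chose them and are given below as a description, with no test. The root arrays of the same genotypes took no part in that choice.

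Transcript levels had been measured on Affymetrix arrays in Col-7, the wild-type accession, and in the gir mutant, called gir1 in the design text and named for glucose-inhibited root elongation. The labels give no allele and no second line for gir, and no probe set was tied here to the mutated gene. The inflorescence groups hold 4 Col-7 and 4 gir arrays from plants aged 33 days that had grown in soil, and flowers that were open or about to open had been taken off before harvest. The root groups hold 3 Col-7 and 3 gir arrays of excised roots from plants aged 21 days. Those plants had grown on agar plates with half-strength MS salts, first without glucose and then with 4% glucose. The design text gives 11 days without and 10 days with glucose, while the sample protocol gives 7 days on the first plate, so the times are uncertain. Tissue, age, medium and glucose differ together between the root and inflorescence groups and cannot be told apart.

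RALF peptides are small secreted proteins that are bound at the cell surface by receptor kinases of the CrRLK1L family, whose extracellular part carries malectin-like domains. In pollen tubes of Arabidopsis the pair ANX1 and ANX2 keeps the growing tip intact until the tube reaches the ovule, and RALF peptides made by the pollen itself act through these receptors on the cell wall at the tip. Tip growth also depends on actin filaments, along which myosins carry vesicles. Actins of plants fall into vegetative and reproductive classes, and ACT12 belongs to the reproductive class found in late pollen.

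The deposited values are MAS5 intensities on a linear scale, with no detection calls. All arrays had been scaled alike, and arrays of a group correlated at 0.983 to 0.993. The 40th percentile of an array, used below as the limit under which a probe set counts as dim, lay between 111 and 140. Log2 differences are on the log2(intensity + 26) scale, which understates the difference of dim probe sets. Whether replicates are separate plants is not given in the labels, so a p-value measures the spread between these arrays, part of which may be technical.

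Both RALF genes were bright on every Col-7 inflorescence array and near the dim limit on the gir arrays. For RALFL25 the Col-7 inflorescence intensities were 1290, 1216, 1412 and 1700 on replicates 1 to 4. The gir inflorescence intensities of RALFL25 were 173, 166, 191 and 98.1. The groups did not overlap, and 3 of the 4 gir arrays still reached their own dim limit, with replicate 4 below it. The group mean of RALFL25 was 1405 ± 213 (SD, n = 4) in Col-7 and 157 ± 40.8 (n = 4) in gir, which is 11.2% of the Col-7 level and a log2 difference of -2.99 ± 0.17 (SE).

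For RALFL26 the Col-7 inflorescence intensities were 1808, 1778, 2008 and 2269. The gir inflorescence intensities of RALFL26 were 322, 214, 198 and 76.9, again with no overlap between the genotypes. Replicate 1 was the highest gir array and replicate 4 the lowest, and the SD of the log2(intensity + 26) values over the gir arrays was 0.74, against 0.48 for ANX2, 0.36 for RALFL25 and 0.27 for ACT12. The ANX2 intensities in gir, 12.6 to 55.4, lie near the added 26, which narrows their SD on this scale. The SDs therefore do not rank RALFL26 above ANX2 in spread. The group mean of RALFL26 was 1966 ± 227 in Col-7 and 203 ± 100 in gir (n = 4 each), which is 10.3% of the Col-7 level and a log2 difference of -3.24 ± 0.30 (SE).

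ANX2, the receptor, was dim on every gir inflorescence array. For ANX2 the Col-7 inflorescence intensities were 379, 339, 389 and 418. The gir inflorescence intensities of ANX2 were 44.5, 55.4, 26.6 and 12.6, all below the 40th percentile of their array. No gir array came near the lowest Col-7 array. The group mean of ANX2 was 381 ± 32.7 in Col-7 and 34.8 ± 19 in gir (n = 4 each), which is 9.13% of the Col-7 level. The log2 difference was -2.80 ± 0.20 (SE) with the added 26 and -3.31 with an added 8, so the low gir intensities limit how well the size of this difference is known.

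ACT12, the actin, kept the largest share of its Col-7 level among the 4 genes. For ACT12 the Col-7 inflorescence intensities were 676, 657, 723 and 722. The gir inflorescence intensities of ACT12 were 175, 148, 118 and 106, of which replicates 1 and 2 reached the dim limit and replicates 3 and 4 did not. The genotypes did not overlap. The group mean of ACT12 was 695 ± 33.2 in Col-7 and 137 ± 30.8 in gir (n = 4 each), which is 19.7% of the Col-7 level and a log2 difference of -2.17 ± 0.12 (SE).

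**Figure D1:**
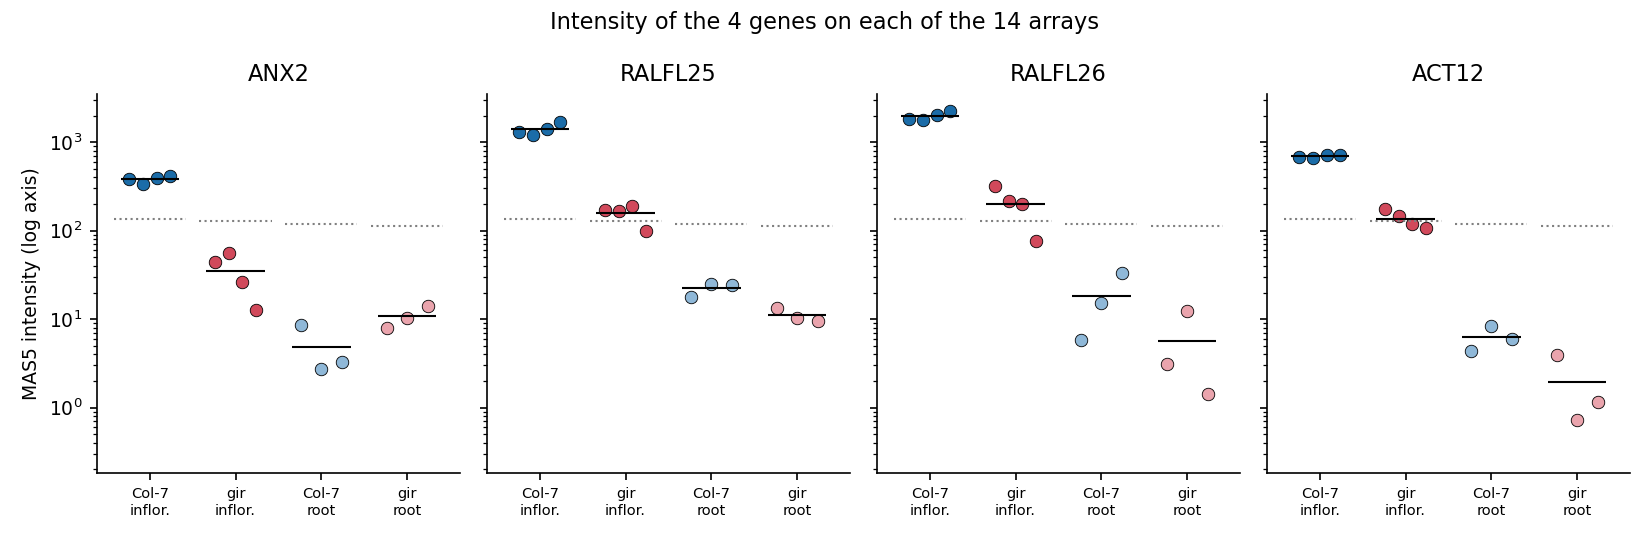
MAS5 intensity (log axis) of ANX2, RALFL25, RALFL26 and ACT12 on each of the 14 arrays, by group, with points for arrays, solid lines for group means and dotted lines for the mean 40th percentile of a group's arrays. In every panel the 4 Col-7 inflorescence arrays lie above the 4 gir inflorescence arrays, and all 6 root arrays lie below the dotted line. Heights of different panels are not comparable, since each probe set has its own brightness.

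Of 13967 probe sets tested in inflorescences, 25.0% had an adjusted p under 0.05 in limma, the threshold used throughout. Of all tested, 12.5% were higher and 12.5% lower in gir (1743 and 1742), and with the replicate number as a block 2706 were higher and 2158 lower. Every gir array lay below every Col-7 array for 13.0% of the probe sets tested, and 2.36% (330 of 13967) both passed the threshold and were lower in gir by 2 or more on the log2 scale. All 4 genes meet these descriptions of size and separation, but nothing can be read from that, because this contrast chose them. Because whole inflorescences were measured, fewer cells of a type and less RNA per cell cannot be told apart.

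The inflorescence arrays labelled replicate 4 gave the lowest gir level of all 4 genes. Relative to the Col-7 array of the same number, gir held 11.8%, 16.3%, 6.85% and 3.01% of ANX2 on replicates 1 to 4. For RALFL25 the shares were 13.4%, 13.6%, 13.5% and 5.77%, so that only replicate 4 stood lower. For RALFL26 they were 17.8%, 12%, 9.84% and 3.39%, and for ACT12 25.8%, 22.5%, 16.4% and 14.7%. Taken from replicates 1 and 2 alone, the log2 difference was -2.71 for RALFL25, -2.65 for RALFL26, -2.34 for ANX2 and -1.89 for ACT12. From replicates 3 and 4 alone it was -3.26, -3.83, -3.25 and -2.44 in the same order, larger in size for each gene. The 25S ribosomal RNA control of the array read 345 and 835 on Col-7 replicates 1 and 2 and 3424 and 6585 on replicates 3 and 4. On the gir arrays that control read 359 and 954 against 2768 and 8660. It thus separated replicates 1 and 2 from 3 and 4 in both genotypes, and its part in the values of the 4 genes was not tested.

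**Figure D2:**
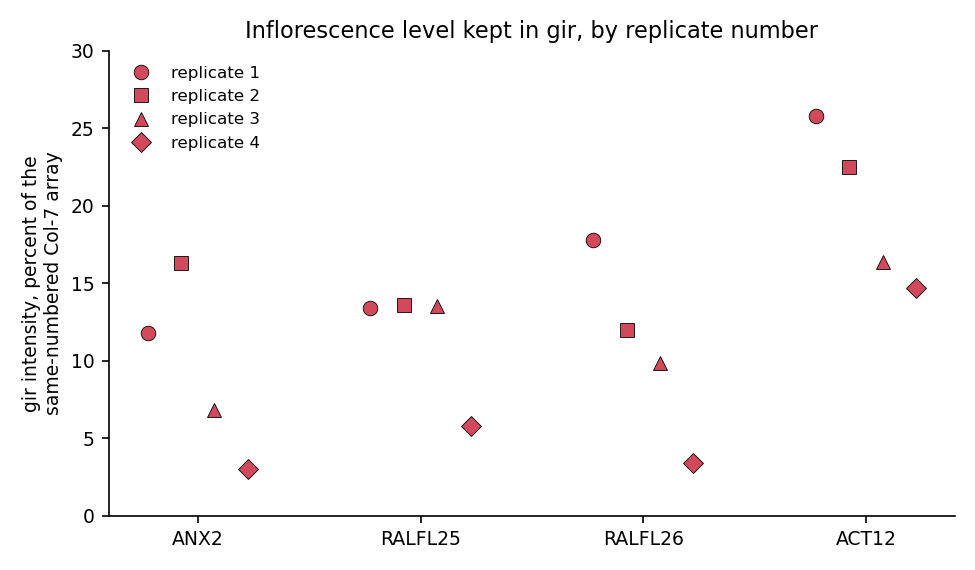
Inflorescence intensity in gir as a percent of the Col-7 array with the same replicate number, for each of the 4 genes, with 1 symbol shape per replicate number. Replicate 4 is the lowest for all 4 genes, from 3.01% for ANX2 to 14.7% for ACT12.

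Other genes of late pollen moved in the same arrays. Of 21 late pollen markers that are neither signalling nor actin genes, 6 had a probe set of their own. They were listed with earlier results of these data known, so their counts are a description. Of these 6, 5 were tested in inflorescences and all 5 passed the threshold with a lower level in gir. MGH3, AT59, AGL66 and AGL104 reached the dim limit on no gir inflorescence array and entered the test through Col-7 arrays alone. AGL65, too dim for the test, read 129 ± 27.6 in Col-7 and 106 ± 12.2 in gir inflorescences, with overlap. Without the filter AGL65 differed by -0.22 (adjusted p = 0.31). The summed intensity of the 6 markers was 3514 to 4049 on the Col-7 and 865 to 1000 on the gir inflorescence arrays. On the root arrays it was 531 to 586 in Col-7 and 455 to 503 in gir. The tubulin gene TUA1 made up most of the root sum, with means of 459 in Col-7 and 380 in gir roots. AGL104, a MADS-domain factor of pollen, differed by -2.16 and MGH3, a histone H3 of the male germline, by -2.19 on the log2 scale. None of 4 tapetum and early anther markers passed the test, and their summed intensity was 3837 to 4478 in Col-7 and 4086 to 4482 in gir inflorescences. SWEET8 made up most of that sum, with means of 2747 in Col-7 and 2725 in gir. EMS1 read 790 and 976 on average (0.30, adjusted p = 0.069, limma). The ovule marker INO read 160 to 191 and 145 to 183, and the 3 petal and floral identity markers together 430 to 527 and 476 to 578. Of these 3, UFO and CLV3 were dim in Col-7 inflorescences, with means of 9.67 and 3.36. The third, SPT, made up most of the sum, with means of 461 in Col-7 and 518 in gir inflorescences. The petal genes AP3 and PI of that list were not among the 3, so the sum says nothing about petal identity genes. Both photosynthetic markers passed the test with a higher level in gir, from a summed 16473 to 18491 in Col-7 to 20584 to 22701 in gir. The part of these markers in the values of the 4 genes was not tested.

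In roots all 4 genes were dim in both genotypes, with no array at its own 40th percentile, and the test without the filter on dim probe sets called none of the 4. In that test 2.71% of all 22746 probe sets passed the threshold, 1.16% with a higher and 1.55% with a lower level in gir. Of the 4 genes, RALFL25 and ACT12 (2 of 4) had an unadjusted p under 0.05, as had 19.5% of all probe sets in that test. The 2 root hair markers with a probe set, EXPA7 and EXPA18, summed to 1933 to 2061 on Col-7 and 2251 to 2368 on gir root arrays. On the inflorescence arrays they summed to 25.5 to 57.7 and 36 to 91.5. EXPA7 passed the root test (0.44, adjusted p = 0.0052), and EXPA18 did not (0.04, adjusted p = 0.81). Root levels of the 4 genes lay where the array gives little information, and a missed threshold does not show that the genotypes were alike.

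The Col-7 root intensities of RALFL25 were 17.8, 25.1 and 24.5, and those of gir 13.4, 10.3 and 9.53. Every gir root array lay below every Col-7 root array, as it did for 15.7% of all probe sets. The log2 difference of RALFL25 was -0.38 ± 0.09 (SE, adjusted p = 0.085, n = 3 each, limma). For RALFL26 the Col-7 root intensities were 5.76, 15.2 and 33.2, and those of gir 3.15, 12.5 and 1.43, with overlap. Its log2 difference was -0.44 ± 0.24 (SE, adjusted p = 0.38, limma).

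The Col-7 root intensities of ANX2 were 8.53, 2.72 and 3.27, and those of gir 7.9, 10.2 and 14.1. Those of gir were higher on average but overlapped the Col-7 range, and the log2 difference was 0.25 ± 0.11 (SE, adjusted p = 0.26, limma). For ACT12 the Col-7 root intensities were 4.38, 8.33 and 5.91, and those of gir 3.92, 0.733 and 1.16. Every gir root array lay below every Col-7 root array, as for 15.7% of all probe sets. The log2 difference was -0.21 ± 0.09 (SE, adjusted p = 0.26, limma).

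Across the 4 groups each gene was highest in Col-7 inflorescences. The fitted level in Col-7 inflorescences lay above that in Col-7 roots by 4.87 for RALFL25, 5.54 for RALFL26, 3.72 for ANX2 and 4.48 for ACT12 on the log2 scale. The corresponding difference within gir was 2.27 for RALFL25, 2.74 for RALFL26, 0.67 for ANX2 and 2.52 for ACT12. These differences are given without a test, because inflorescence arrays that chose the genes enter each of them. The Col-7 root means, 22.5 for RALFL25, 18.1 for RALFL26, 4.84 for ANX2 and 6.21 for ACT12, lay below the added 26. The gir root means, 11.1, 5.69, 10.7 and 1.94 in the same order, did so too. The added 26 therefore understates these differences, and their sizes do not rank the genes by fold difference between tissues.

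For RALFL25, RALFL26 and ACT12 even the lowest gir inflorescence array (98.1, 76.9 and 106) was above the highest root array (25.1, 33.2 and 8.33). ANX2 differed in this respect, since its lowest gir inflorescence array (12.6) was below its highest root array (14.1). The order of the levels of RALFL25 and ACT12 was thus Col-7 inflorescence, gir inflorescence, Col-7 root and gir root, with no overlap between neighbours. Its last step, between the root groups, lies far below the dim limit, where the array gives little information. For RALFL26 the 2 root groups overlapped, and for ANX2 gir inflorescences overlapped gir roots and the 2 root groups overlapped each other.

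To place the 4 genes in their pathway, 7 lists of other ligands, receptors, ROP GTPases, actins, actin-binding proteins, transporters and membrane trafficking genes with at least 1 probe set of their own were measured, 67 genes without the 4. Of the 41 tested in inflorescences, 12 were lower in gir, 1 was higher and 28 did not pass the threshold. The shares over all probe sets tested are the 12.5% lower and 12.5% higher given above. The lists were chosen with earlier results of these data known. AT4G39110, AT2G41970, AT2G21480, XIC and PIPK11, all lower in gir, reached the dim limit on no gir array. AT5G39020, the gene that was higher, reached it on no Col-7 array. These genes entered the test only through the genotype in which they were brighter, so the list counts are a description. The median log2 difference was -0.01 over the 41 list genes and 0.06 over all probe sets tested. With the replicate number as a block, 13 were lower and 2 higher. The count of higher genes was 2 without Col-7 replicate 1 and 3 without gir replicate 1.

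None of the 5 other RALF genes tested in inflorescences passed the threshold, and their median log2 difference was 0.08. RALFL34 read 3481 ± 481 in Col-7 and 3696 ± 631 in gir inflorescences (SD, n = 4 each), a difference of 0.08 ± 0.14 (SE, adjusted p = 0.71). RALFL33 differed by 0.03 ± 0.08 (adjusted p = 0.8) and RALFL32 by 0.10 ± 0.08 (adjusted p = 0.43). In these arrays RALFL25 and RALFL26 thus stood beside RALF genes with log2 differences of 0.15 or less in size. Of the 3 RALF genes that were too dim for the test, RALFL28 went the other way: it read 32.8 ± 7.02 in Col-7 and 149 ± 48.3 in gir inflorescences and rose by 1.54 (adjusted p = 0.00049) in the test without the filter. RALFL28 was singled out after its values were seen.

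The CrRLK1L list holds receptors and genes entered as acting with them, so its counts are not counts of receptors alone. Of its genes, 9 were tested in inflorescences, 3 were lower in gir, 1 was higher and 5 did not pass, with a median of -0.04. AT4G39110 fell from 658 ± 83.3 to 82.6 ± 14.8 (log2 difference -2.66 ± 0.12, adjusted p = 1.2e-07). AT2G41970 fell from 227 ± 24.1 to 41.3 ± 16.3 (-1.94 ± 0.16, adjusted p = 7.2e-06), and AT2G21480 from 167 ± 10.9 to 36.6 ± 5.7 (-1.63 ± 0.09, adjusted p = 3.5e-07). AT5G39020 rose from 83 ± 29.2 to 239 ± 35.9 (1.31 ± 0.18, adjusted p = 0.00043). The gene table gives these 4 loci no symbol, and AT2G41970 was entered as a gene acting with the receptors.

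FER, a receptor of the same family that acts in root growth and in the synergid cells of the ovule, read 1660 ± 88.8 in Col-7 and 1941 ± 271 in gir inflorescences (0.21 ± 0.11, adjusted p = 0.18). Without gir replicate 1 it passed the threshold (0.32, adjusted p = 0.011). THE1, which acts in cell wall sensing, differed by 0.04 ± 0.14 (adjusted p = 0.88). ANX1, the partner of ANX2, did not reach the filter. It read 129 ± 8.14 in Col-7 and 22.6 ± 10.6 in gir inflorescences and fell by 1.70 on the log2 scale in the test without the filter (adjusted p = 6.7e-05). ANX1 was singled out after its values were seen, as the gene paired with ANX2 in name.

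**Figure D3:**
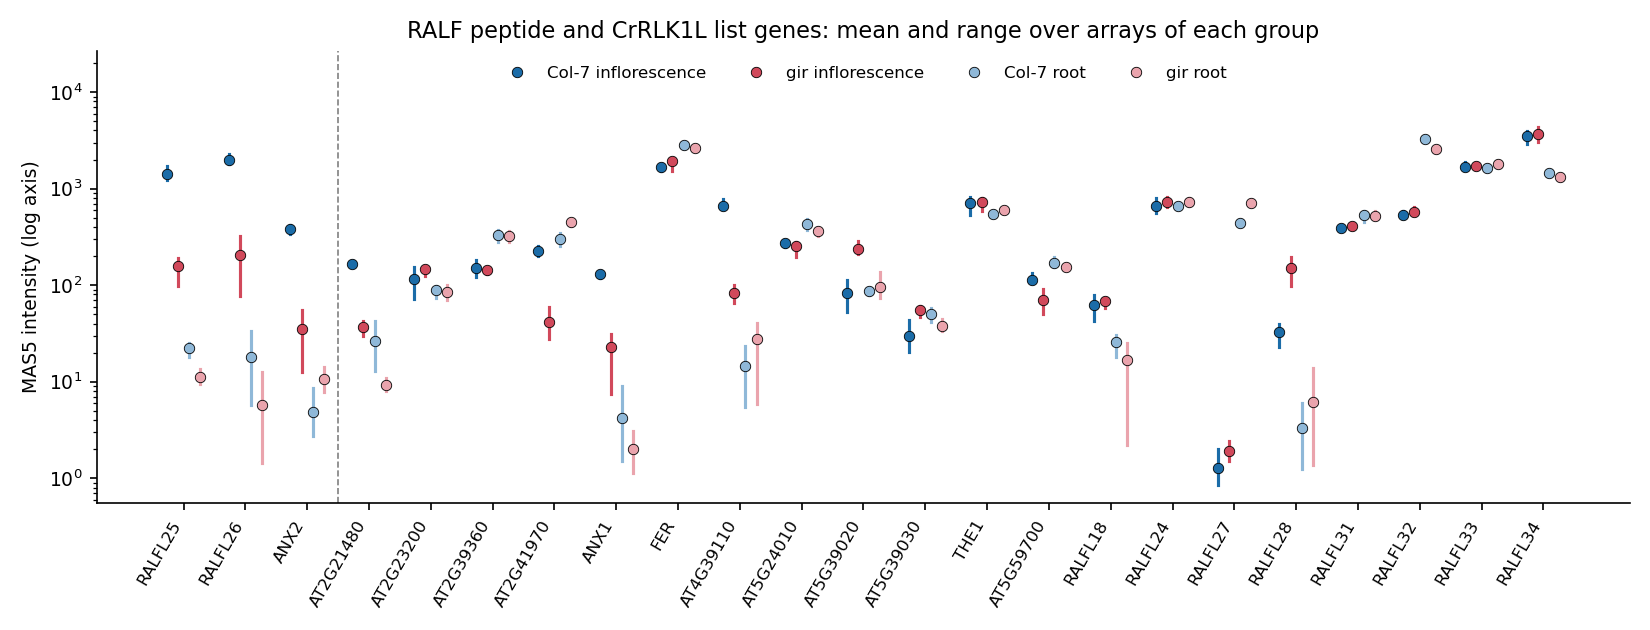
Mean MAS5 intensity (log axis) of the RALF peptide and CrRLK1L list genes in the 4 groups, with bars from the lowest to the highest array, and RALFL25, RALFL26 and ANX2 to the left of the dashed line. RALFL33 and RALFL34 show close inflorescence means in the 2 genotypes, while RALFL25, RALFL26, ANX2 and AT4G39110 show separated ones.

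Of the list of actins and actin-related proteins, 2 genes besides ACT12 were measured. ACT11, a reproductive actin of pollen and ovules, fell from 860 ± 36 in Col-7 to 523 ± 72 in gir inflorescences (log2 difference -0.70 ± 0.10, adjusted p = 0.00052). CRK, a subunit of the actin-nucleating ARP2/3 complex, read 375 ± 22.5 and 421 ± 46.6 (0.15 ± 0.09, adjusted p = 0.25). ACT12 held 19.7% of its Col-7 level on average in gir, against 60.9% for ACT11.

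Of 14 actin-binding genes tested in inflorescences, 5 were lower in gir, none was higher and 9 did not pass, with a median of -0.14. The LIM proteins PLIM2a and PLIM2b bundle actin filaments in pollen. PLIM2a fell from 1867 ± 114 to 210 ± 62.9 (-3.04 ± 0.17, adjusted p = 5.5e-07) and PLIM2b from 1193 ± 102 to 302 ± 40.9 (-1.90 ± 0.10, adjusted p = 4.1e-07). The LIM genes WLIM1 and WLIM2b, which are widely expressed, differed by -0.04 ± 0.08 (adjusted p = 0.74) and 0.11 ± 0.09 (adjusted p = 0.37). The class XI myosin genes XIE and XIC fell as well, XIE from 868 ± 58.6 to 149 ± 47.2 (-2.38 ± 0.16, adjusted p = 1.4e-06) and XIC from 313 ± 14.5 to 87.3 ± 21.5 (-1.60 ± 0.12, adjusted p = 3.6e-06). The fifth was NET2D, of the NETWORKED family, which fell from 252 ± 12.1 to 126 ± 14.2 (-0.87 ± 0.09, adjusted p = 3.4e-05) and lies outside the rule for named genes.

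**Figure D4:**
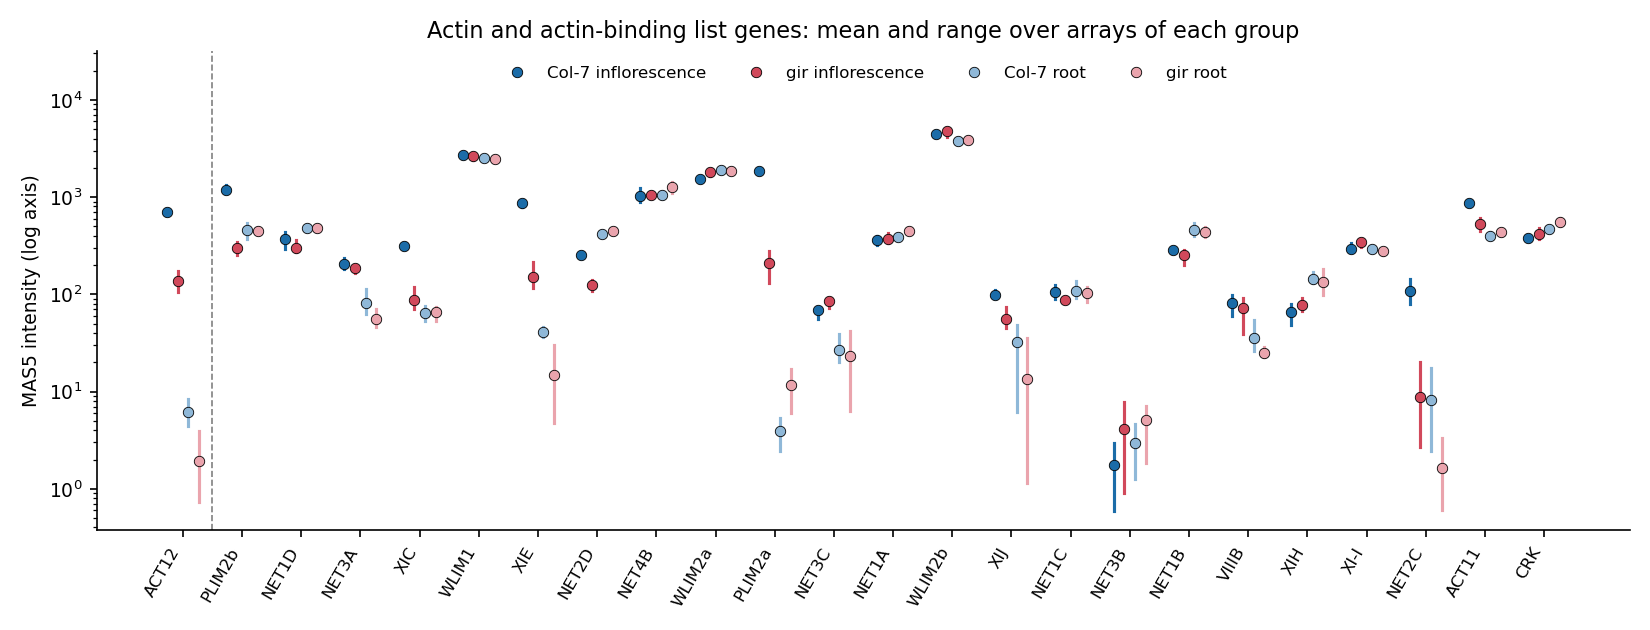
Mean MAS5 intensity (log axis) of the actin, actin-related and actin-binding list genes in the 4 groups, with bars from the lowest to the highest array and ACT12 to the left of the dashed line. PLIM2a, PLIM2b, XIE and XIC show Col-7 inflorescence means above the gir means, while WLIM1 and WLIM2b show close means in all 4 groups.

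The other lists held few measurable genes. Of 2 ROP GTPase partners, SCN1, an inhibitor that holds ROP GTPases inactive, fell from 2637 ± 165 to 1970 ± 187 (-0.42 ± 0.09, adjusted p = 0.0072), and SPK1, an activator of ROP GTPases, differed by -0.01 ± 0.11 (adjusted p = 0.97). Of 2 transport genes tested, CHX19, a cation/proton exchanger, fell from 1307 ± 45.9 to 194 ± 47.1 (-2.62 ± 0.13, adjusted p = 2e-07), and the glutamate receptor-like channel gene GLR3.3 differed by 0.08 ± 0.12 (adjusted p = 0.66). Other CHX genes were too dim for the test and went both ways without the filter. CHX15 (-1.80, adjusted p = 6.7e-05), CHX28 (-1.06, adjusted p = 0.014) and CHX20 (-0.74, adjusted p = 0.015) were lower in gir. CHX16 was higher (0.64, adjusted p = 0.014). Of 7 genes of phosphoinositide kinases and vesicle tethering, PIPK11, a phosphatidylinositol phosphate kinase, fell from 201 ± 33.2 to 17.3 ± 4.29 (-2.38 ± 0.11, adjusted p = 1.8e-07). The 6 others, all subunits of the exocyst tethering complex, did not pass, among them SEC5A at -0.01 ± 0.10 (adjusted p = 0.94) and EXO84B at 0.16 ± 0.10 (adjusted p = 0.29).

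**Figure D5:**
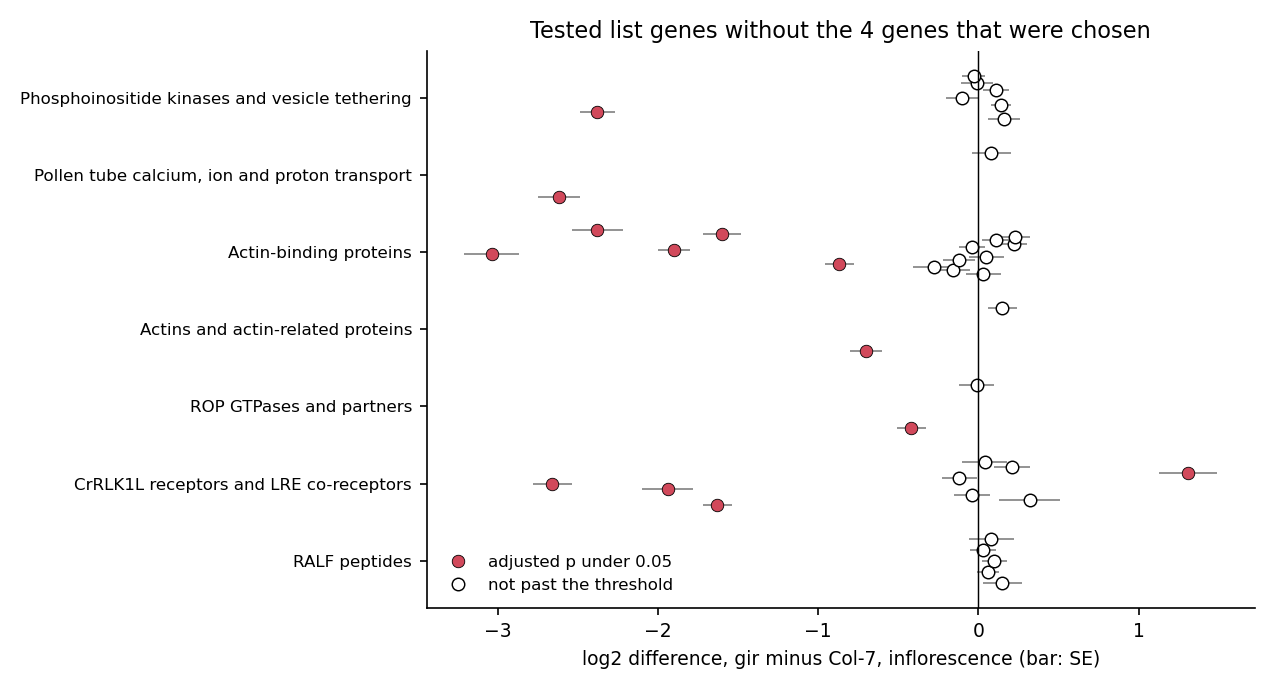
Log2 difference between gir and Col-7 inflorescences of the 41 tested list genes other than the 4 chosen, by list, with bars for the SE and filled points for adjusted p under 0.05. The 12 filled points on the left reach from -0.42 for SCN1 to -3.04 for PLIM2a, and the filled point on the right is AT5G39020 at 1.31.

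In roots, where 11.9% of 13800 tested probe sets were called (5.49% up and 6.36% down in gir), 36 of the list genes were tested, 2 were higher, 1 was lower and 33 did not pass. The median log2 difference was -0.01 for the list genes and -0.01 for all probe sets tested. RALFL27 rose from 442 ± 19.6 to 718 ± 25.4 (SD, n = 3 each; 0.67 ± 0.07, adjusted p = 0.0013), while it read 1.27 and 1.92 on average in Col-7 and gir inflorescences. RALFL32 fell from 3271 ± 65.2 to 2589 ± 118 (-0.34 ± 0.07, adjusted p = 0.017), and AT2G41970 rose from 299 ± 46 to 446 ± 28.9 (0.55 ± 0.11, adjusted p = 0.015). Without gir root replicate 1, or without gir root replicate 2, RALFL32 and AT2G41970 no longer passed, and the counts were 1 higher and 0 lower. Over all probe sets 758 were higher and 878 lower in gir roots, against 385 and 478 without gir root replicate 1, 353 and 446 without gir root replicate 2 and 493 and 545 without Col-7 root replicate 2.

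Where a list gene was tested in both tissues, the genotype effect in inflorescences was set against that in roots by the interaction term, which 18.2% of 11910 probe sets passed, 10.9% with a higher and 7.33% with a lower effect in inflorescences. Of 16 such genes named by the rule, 5 passed. The rule names genes partly by their p in the inflorescence and root tests on the same arrays. The count of 5 can therefore not be set against the 18.2%. Of the list genes outside the rule, NET2D (-0.96, adjusted p = 2.3e-05) and SEC10 (0.28, adjusted p = 0.048) passed as well. ACT11 differed by -0.85 (adjusted p = 0.00047), with a root value of 0.15 ± 0.08 (adjusted p = 0.27). PLIM2b differed by -1.89 (adjusted p = 3.2e-06), AT2G41970 by -2.48 (adjusted p = 2.5e-06), SCN1 by -0.55 (adjusted p = 0.0036) and RALFL32 by 0.43 (adjusted p = 0.011). This term was not tested for RALFL25, RALFL26, ANX2 or ACT12.

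Between wild-type tissues 77.8% of 16038 probe sets passed the threshold, 38.3% with a higher and 39.5% with a lower level in Col-7 inflorescences than in Col-7 roots. The ratio of the 3' to the 5' control probe set of GAPDH, a sign of RNA quality and labelling, was 2.1 to 2.2 on the Col-7 inflorescence and 0.933 to 0.938 on the Col-7 root arrays, and its part in the tissue differences was not tested. Of 47 list genes tested, 16 were higher in inflorescences, 17 were lower and 14 did not pass. This contrast shares the Col-7 inflorescence arrays with that between genotypes, so the values are only set side by side. PLIM2a was higher in Col-7 inflorescences than in Col-7 roots by 5.98, CHX19 by 4.31, XIE by 3.75 and PIPK11 by 2.98 on the log2 scale. Beside them stand the values of 4.87 for RALFL25, 5.54 for RALFL26, 3.72 for ANX2 and 4.48 for ACT12. All of these genes were dim in Col-7 roots, where the added 26 understates a difference. The values therefore do not rank them by fold difference between tissues. NET2D, by contrast, was lower in Col-7 inflorescences than in Col-7 roots, by 0.69 on the log2 scale (log2 difference -0.69, adjusted p = 1.6e-06). AT2G41970, also lower in gir inflorescences, differed by -0.36 between the tissues and did not pass (adjusted p = 0.052, limma). Some list genes that did not pass between genotypes in inflorescences were higher in Col-7 inflorescences too, RALFL34 by 1.22 and NET3A by 1.13.

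RALFL25 and RALFL26 are adjacent protein-coding genes on chromosome 3 in the TAIR10.1 gene table, and ANX2 lies on chromosome 5 and ACT12 on chromosome 3. Of the neighbours within 2 protein-coding genes of a member, 5 had a probe set of their own, and they are given here whatever their values. AT3G25160, next to RALFL25, fell from 250 ± 18.4 in Col-7 to 114 ± 18.5 in gir inflorescences (-0.99 ± 0.10, adjusted p = 5.5e-05), with the same log2 difference of -0.99 on replicates 1 and 2 and on replicates 3 and 4. The gene beyond it, AT3G25150, rose from 1939 ± 87.3 to 2451 ± 317 (0.33 ± 0.10, adjusted p = 0.041), with overlap between the groups and an adjusted p of 0.071 in the test without the filter. Near ACT12, AT3G46540 read 399 ± 54.2 and 452 ± 34.7 (0.17 ± 0.10, adjusted p = 0.25), and AT3G46500 was dim in inflorescences. In roots AT3G46500 read 97 ± 12.7 in Col-7 and 138 ± 5.94 in gir (0.42 ± 0.09, adjusted p = 0.02, and 0.082 without the filter). It reached the dim limit on no Col-7 root array and entered the root test through the gir arrays alone, so this value is a description. Near ANX2, AT5G28720 was dim on all 14 arrays.

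The likeness of whole profiles was measured as the root mean square difference of log2 values over the 14 arrays, after each profile had been centred on its own mean. It is a description to which the gap between groups contributes most. RALFL25 lay closest to ACT12 (0.36) and RALFL26 (0.40) among the 4 genes, RALFL26 and ACT12 lay 0.61 apart, and ANX2 lay 0.73 from ACT12, 0.75 from RALFL25 and 1.05 from RALFL26. Each gene had closer neighbours among the other probe sets naming 1 gene: ACT12 ranked 30 and RALFL26 ranked 44 in likeness to RALFL25 among 13435.

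The 5 nearest profiles to RALFL25 were AT3G05610 (0.18), AT1G54070 (0.20), AT5G64790 (0.21), AT5G50830 (0.21) and LCR72 (0.22), a gene of a small cysteine-rich protein. Those nearest to RALFL26 were AT3G26860 (0.28), LCR72 (0.31), AT3G17060 (0.33), AT1G54070 (0.36) and PLIM2a (0.37), so that LCR72 and AT1G54070 stood in both sets. LCR72 read 1485 in Col-7 and 165 in gir inflorescences on average, 11.1% of the Col-7 level.

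The 5 nearest profiles to ANX2 were AT5G46770 (0.18), AT4G25780 (0.22), AT2G33420 (0.26), AT1G66210 (0.30) and AT2G16750 (0.31). AT5G46770 read 392 and 29.3 in Col-7 and gir inflorescences and 4.34 and 11.2 in Col-7 and gir roots. Those nearest to ACT12 were AT1G47280 (0.20), AT2G27180 (0.21), AT5G25550 (0.24), AT5G53820 (0.24) and AT2G33690 (0.24). AT1G47280 held 14.6% of its Col-7 inflorescence level in gir and AT2G27180 19.3%.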

How the data were processed

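The authors deposited MAS5 intensities, per the submitters' processing notes (version and build: not given in the sources used here). On each array their mean without the lowest and highest 2% is 500. Arrays have no sequencing depth, and the precision is set by how many there are. Titles gave each sample's tissue and genotype.

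Values were analysed as log2(intensity + 26), 26 being the 20th percentile of all values, without the 64 control probe sets. Tested were probe sets at or above the 40th percentile of their array on no fewer arrays than the smaller group has. The tissues had separate fits in limma 3.58.1 (lmFit, eBayes) under R 4.3.3, two-sided, with Benjamini-Hochberg adjustment over all probe sets tested and a threshold of 0.05. The comparison of wild-type tissues and the interaction came from a fit of all 14 arrays. No root value of the 4 genes reached the filter, so their root values come from a fit without it. Tables and plots were made with Python 3.11.15 and matplotlib 3.10.9. Tested on simulated data, the inflorescence fit (13967 probe sets) found 96% of log2 changes of 1 and 99% of those of 2, and called 14 unchanged probe sets. The root fit (13800) found 96% and 100%, and called 12. The simulation drew independent noise for each array, changed few probe sets and set no floor for dim values. The real arrays differ in these respects, so these shares need not hold for them.

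The platform annotation lists 14016 probe sets, of which 13513 name 1 gene and 503 several. Of the former, 13436 matched the TAIR10.1 gene table and stood for 13286 genes. A list gene with several probe sets was taken at that of highest mean. The 4 genes, the 9 gene lists and the marker lists were chosen with earlier results of these data known. Genes that had entered a list by a shared symbol were removed after values had been seen, and 2 lists (pollen receptor kinases and NADPH oxidases) then had no probe set. Few genes of a family have a probe set of their own, as for the 10 of 34 RALF genes. Named from each list were up to 4 genes past the threshold in inflorescences and 3 in roots, by p, and 2 that passed neither, by mean intensity. Added to them were the 5 nearest profiles per gene.

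Alternatives were quantile normalization, median centring, an added 8, no filter, a filter at the 60th percentile, a joint fit, the replicate number as a block, each replicate left out, and replicates 1 and 2 or 3 and 4 alone. The labels number replicates alike in both genotypes. Deviations from the group means of same-numbered inflorescence arrays correlated at 0.587, 0.191, 0.203 and 0.517. The numbers were therefore used as pairs only in the shares of the same-numbered Col-7 array and in the alternative fit with a block. The main fits had no block, so the SE and adjusted p values printed from them take no account of this pairing. Some arrays of different number correlated too, gir replicate 4 with Col-7 replicate 3 at 0.402 and gir replicate 3 with Col-7 replicate 4 at 0.249. For roots the correlations were 0.0765, 0.00724 and 0.0165, and no pairing was assumed. The mutated gene was not tied to a probe set and was not analysed here.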

Additional observations from a re-analysis of the deposited data

Results flagged for a closer look

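Among 60 groups of 4 inflorescence arrays of the 4 genes and the named list genes, 4 had an array far from the other 3, where chance gives about 1 in 20. None of them belonged to RALFL25, RALFL26, ANX2 or ACT12. In gir inflorescences replicate 1 was the highest for CHX19, at 264, and for CHX16, another cation/proton exchanger gene, at 80.7. The same array was the lowest for FER, at 1535. In Col-7 inflorescences replicate 4 was the highest for AT4G39110 of the CrRLK1L list, at 783.

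The genotype effect differed between tissues, by the interaction term, for 5 named list genes. Genes were named partly by tests on the same arrays, so this count is a description. The inflorescence effect minus the root effect on the log2 scale was -2.48 for AT2G41970, -1.89 for PLIM2b, -0.85 for ACT11, -0.55 for SCN1 and 0.43 for RALFL32.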

How the results depend on the processing

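The inflorescence differences of the 4 genes kept their direction under every alternative run. ANX2 moved from -2.80 to -2.34 on replicates 1 and 2, -3.25 on replicates 3 and 4 and -3.31 with an added 8. RALFL26 moved from -3.24 to -2.65 and -3.83, and ACT12 from -2.17 to -1.89 and -2.44, on the same replicates. With each array left out in turn the ranges were -2.96 to -2.60 for ANX2, -3.08 to -2.81 for RALFL25, -3.49 to -2.90 for RALFL26 and -2.27 to -2.07 for ACT12. In roots none of the 4 passed the threshold under any alternative run. The filters do not apply to them there.

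Of the other list genes, the count higher in gir inflorescences (1) became 3 in the joint fit, 3 with median centring, 4 with no filter, 2 with the replicate number as a block and 0 with the filter at the 60th percentile, and 1 to 3 with an array left out. The count lower (12) became 19 with no filter and 7 with the stricter filter, and 12 to 13 with an array left out. In roots the higher count (2) became 1 in the joint fit and 1 to 3 with an array left out, and the lower count (1) became 0 with no filter and 0 to 1 with an array left out. Between wild-type tissues the higher count (16) became 25 with no filter and 10 with the stricter filter, and 13 to 16 with an array left out. Fewer or more genes were tested under the filters, and the cause of the other shifts was not tested. Over all probe sets in inflorescences the block changed the higher count from 1743 to 2706, and it moved no other list count by more than 1.5 times.

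Of 635 values of named list genes under an alternative, 599 kept direction and side of the threshold. In inflorescences SCN1 lost its call on replicates 3 and 4 alone (adjusted p = 0.088) and FER gained one without gir replicate 1. In roots AT2G41970 lost its call in 4 settings and RALFL32 in 3. Median centring changed the calls over all probe sets from 1743 higher and 1742 lower to 2473 and 1575 in inflorescences, and from 758 and 878 to 1036 and 690 in roots. For the list genes in inflorescences it changed them from 1 and 12 to 3 and 12. The low intensities of ANX2 in gir and of all 4 genes in roots limit the precision of their ratios.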
